A study of Beta vulgaris with 9 samples.

Results

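The genes described here are 3 chlorophyll breakdown genes of sugar beet, namely the pheophytinases LOC104907441 and LOC104895050 and the protein STAY-GREEN 1 gene LOC104892367. They were picked by gene identifier and product name, and they are 3 of the 24351 gene identifiers typed as protein-coding in the deposited table. A further 9 genes of the same pathway were found by product name and are described as their surroundings. Leaf RNA was sequenced in 9 libraries of the cultivar KWS0143, with plants raised in hydroponics and treated from an age of 5 weeks at the seedling stage. The control group (C) had 3 libraries from plants at day 0 of the treatment. The short-term group (ST) had 3 libraries after 3 days in nutrient solution holding 75 mM of mixed sodium carbonate and bicarbonate, and the long-term group (LT) had 3 libraries after 7 days in it. All control leaves came from day 0, so the alkaline treatment cannot be told apart from leaf age and day of harvest. ST and LT leaves were compared with the same control libraries, so the comparisons are not independent of each other.

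Chlorophyll is taken apart in the chloroplast by a short chain of enzymes, best known from senescing leaves of Arabidopsis. Chlorophyll b is first turned into chlorophyll a, then STAY-GREEN removes the magnesium to give pheophytin, pheophytinase cuts off the phytol tail to give pheophorbide, and pheophorbide a oxygenase opens the ring. The opened ring is reduced by red chlorophyll catabolite reductase and ends in colourless products, while mutants without STAY-GREEN, pheophytinase or the oxygenase keep their pigment when leaves age.

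Each of the 3 genes had 1 transcript in the table, so the gene value and the transcript value were the same. LOC104907441 lay on sequence NC_025813.2 from 5748780 to 5753356 on the plus strand, with 6 exons, a transcript of 2226 nt and an open reading frame of 519 amino acids. LOC104895050 lay on NC_025817.2 from 2481710 to 2485719 on the plus strand, with 7 exons, a shorter transcript of 1457 nt and a reading frame of 387 amino acids. LOC104892367 lay on NC_025816.2 from 4471729 to 4477819 on the plus strand, with 4 exons, a transcript of 1472 nt and a reading frame of 283 amino acids. The sources used here do not give the genome build. No other protein-coding transcript, newly assembled long non-coding RNA or transcript of uncertain coding potential overlapped any of the 3 genes. Annotated reference long non-coding RNAs were not searched. The nearest protein-coding neighbour, an ankyrin repeat-containing protein ITN1 gene, ended 164 bp downstream of LOC104895050 on the opposite strand and had at most 0.231 FPKM. The only newly assembled long non-coding RNA within 10 kb of any of the 3 was LNC_002944. This transcript of 266 nt lay 9197 bp upstream of LOC104895050. It was listed at 0.304, 0.607 and 0.593 FPKM in control leaves, 1.60, 0 and 0.618 FPKM in ST leaves and 0.254, 0.269 and 0.433 FPKM in LT leaves, so the groups overlapped.

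FPKM, the fragments of a transcript corrected for its length and for the size of the library, is a level per length, so levels of different genes can be set side by side. The steps between low FPKM values gave an estimated depth of 1.67e+07 to 2.19e+07 fragments per library, taking the commonest step as 1 fragment. On that estimate the values of the 3 genes rested on 231 to 3701 fragments each, with a counting error of at most 6.58%. Of the gene identifiers, 14491 averaged more than 0.5 FPKM in 1 group or more and were tested with limma on log2(FPKM + 1), a scale that understates the change of genes with a low FPKM. The median log2 change of all these genes was 0.11 in ST and 0.26 in LT leaves against control leaves, and 0.15 in LT against ST leaves. Changes relative to this median, called relative, are therefore given beside the main LT changes of the genes named. The first principal component held 65.6% of the variance, and along it the library C1 (-1.07) lay among the ST libraries (-3.22 to 20.3) rather than beside C2 (55.8) and C3 (71.9). Results for the 3 genes are therefore also given without C1. In all, 4505 genes (31.1%) rose and 1047 (7.23%) fell in LT leaves at an adjusted p under 0.05, against 11 (0.0759%) and 4 (0.0276%) in ST leaves. With median-ratio scaling the split in LT leaves was 1447 risen and 1848 fallen.

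In LT leaves STAY-GREEN 1 and pheophytinase LOC104907441 rose to 2.67 and 2.74 times their control levels, while pheophytinase LOC104895050 fell to 0.527 times its own. The 3 genes passed the test in LT leaves, with 2 risen and 1 fallen. In ST leaves none of the 3 passed, although each was already beyond the range of the control leaves, in the direction it had in LT leaves. The libraries measured whole leaves, where fewer cells of a type and less RNA per cell cannot be told apart.

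STAY-GREEN 1 (LOC104892367), the magnesium-removing enzyme, was the lowest of the 3 genes in control leaves, with 19.1, 12.7 and 7.15 FPKM in C1, C2 and C3. It had 20.4, 25.5 and 37.0 FPKM in ST1, ST2 and ST3, and 28.1, 43.4 and 32.3 FPKM in LT1, LT2 and LT3. Every treated library was above every control library, but ST1 was only just above C1, and the ST and LT libraries overlapped. The means were 13.0 ± 5.97, 27.6 ± 8.53 and 34.6 ± 7.88 FPKM (SD, n = 3 each), or 2.13 times the control mean in ST and 2.67 times in LT leaves. The log2 change in LT leaves was 1.42 with a standard error of 0.34 and an adjusted p of 0.0151 (limma), or 1.16 relative to the median gene. Without LT2, the library with its highest level, the change was 1.25 and no longer passed (adjusted p = 0.0585). Adjusted over the 18511 transcripts tested, the p of its transcript was 0.0232, and this call was lost without C2 (0.0646), without C3 (0.0679) or without LT2 (0.0832). The log2 change in ST leaves was 1.09 (relative 0.98, SE 0.34, unadjusted p = 0.0110, adjusted p = 0.122). Without C1 the changes were 1.40 in ST (adjusted p = 0.0508) and 1.73 in LT leaves (adjusted p = 0.00503). Between LT and ST leaves the log2 difference was 0.33 (relative 0.18, adjusted p = 0.538).

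Pheophytinase LOC104907441, annotated as the enzyme of the next step, had 33.3, 30.6 and 21.5 FPKM in the control libraries. It had 55.5, 56.3 and 75.4 FPKM in ST leaves and 86.5, 86.1 and 61.8 FPKM in LT leaves. The lowest treated library was thus well above the highest control library, whereas LT3 fell inside the ST range. The means were 28.5 ± 6.21, 62.4 ± 11.3 and 78.1 ± 14.1 FPKM (SD, n = 3 each), which is 2.19 times the control mean in ST and 2.74 times in LT leaves. The log2 change in LT leaves was 1.43 (relative 1.17, SE 0.21, limma adjusted p = 0.00462), and 94.9% of the tested genes had a lower one. In ST leaves it was 1.11 (relative 1.00, SE 0.21, unadjusted p = 0.000537, adjusted p = 0.0621), higher than in 98.2% of the tested genes. This ST change passed without C1 (1.24, adjusted p = 0.0369) and without LT3, where the value stayed at 1.11 (adjusted p = 0.0481). Without C1 the LT change was 1.55 (adjusted p = 0.00269). The difference between LT and ST leaves was 0.32 on the log2 scale (relative 0.17, adjusted p = 0.338).

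Pheophytinase LOC104895050 carries the same product name and moved the other way. Its levels were 42.6, 51.6 and 46.2 FPKM in control leaves, 35.1, 34.7 and 39.6 FPKM in ST leaves and 26.1, 21.3 and 26.4 FPKM in LT leaves. No value of one group reached into the range of another, so that control leaves were highest, ST leaves in the middle and LT leaves lowest. The means were 46.8 ± 4.52, 36.5 ± 2.75 and 24.6 ± 2.86 FPKM (SD, n = 3 each), with the control mean 1.90 times the LT mean. The log2 change in LT leaves was -0.90 (relative -1.16, SE 0.12, limma adjusted p = 0.00430), and only 2.58% of the tested genes had a lower one. In ST leaves it was -0.35 (relative -0.46, SE 0.12, unadjusted p = 0.0195, adjusted p = 0.151), and between LT and ST leaves it was -0.55 (relative -0.70, unadjusted p = 0.00163, adjusted p = 0.0838). The last of these passed without LT1 (-0.60, adjusted p = 0.0442). Without C1 the changes were -0.41 in ST (adjusted p = 0.103) and -0.96 in LT leaves (adjusted p = 0.00248).

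**Figure D1:**
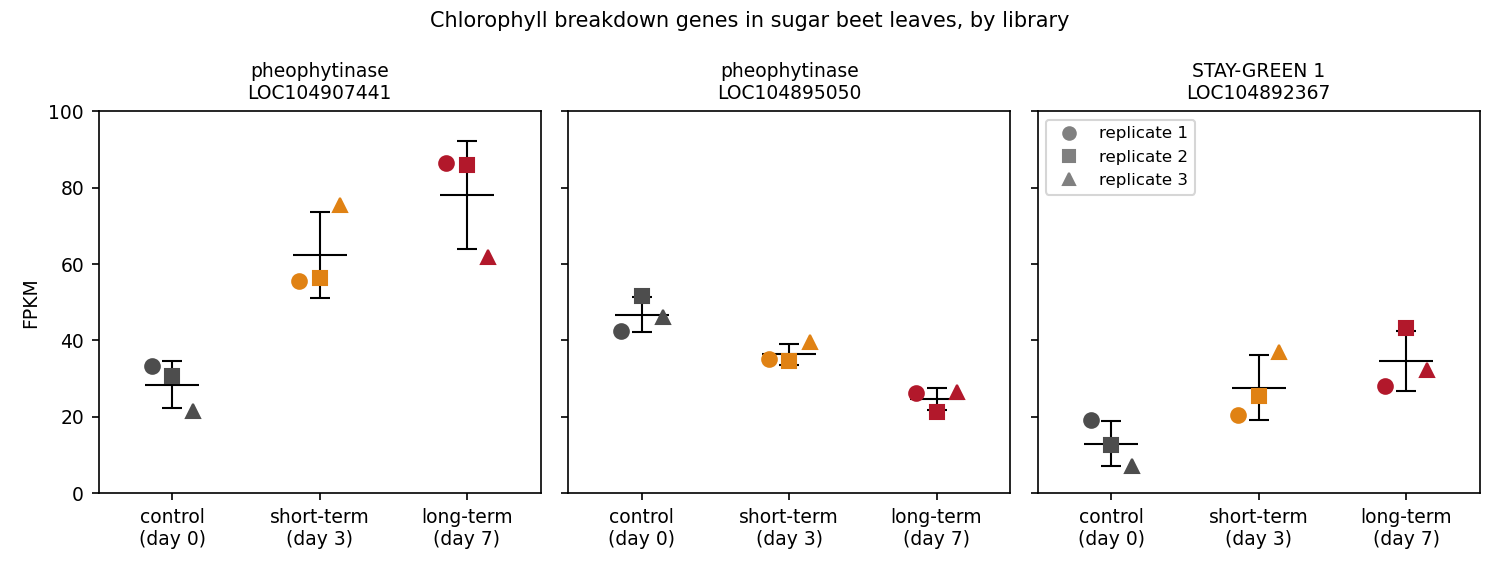
FPKM of the 3 chlorophyll breakdown genes in each library, with 1 panel per gene, the group on the x axis, 1 symbol per replicate number, and a bar with whiskers for the mean and SD of 3 libraries. LOC104907441 and STAY-GREEN 1 lie higher in every treated library than in any control library, and LOC104895050 lies lower, with its LT libraries at 21.3 to 26.4 FPKM.

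These counts stand beside those of all genes tested. At an adjusted p under 0.05, 31.1% of genes rose and 7.23% fell in LT leaves, so a risen gene was common and a fallen one was not. At an unadjusted p under 0.05 the shares were 40.7% and 9.79%. For the ST comparison, where 0 of the 3 genes were called by limma, 2 rose and 1 fell at an unadjusted p under 0.05, against 15.1% and 7.1% of all genes. Every ST library was above every control library in 20.8% of genes (2 of the 3 here) and below in 9.9% (1 of the 3). For LT against control leaves these shares were 38% and 9.85%. For LT against ST leaves limma called 0 of the 3 genes and 0% of all genes in either direction. At an unadjusted p under 0.05 in that comparison, LOC104895050 fell, as did 5.34% of all genes, none of the 3 rose, against 22.4% of all genes, and it was the only 1 of the 3 without overlap, which held downwards for 6.57% and upwards for 27.3% of all genes.

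The order of the levels turned over between control and LT leaves. In control leaves LOC104895050 (42.6 to 51.6 FPKM) was above LOC104907441 (21.5 to 33.3 FPKM), and that in turn was above STAY-GREEN 1 (7.15 to 19.1 FPKM), with no overlap between neighbours. In ST leaves LOC104907441 was first (55.5 to 75.4 FPKM), while LOC104895050 (34.7 to 39.6 FPKM) and STAY-GREEN 1 (20.4 to 37.0 FPKM) overlapped. In LT leaves LOC104907441 stayed first (61.8 to 86.5 FPKM), STAY-GREEN 1 followed (28.1 to 43.4 FPKM), and LOC104895050 was last (21.3 to 26.4 FPKM), again with no overlap.

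A ratio of both pheophytinases taken within a library does not depend on how that library was scaled. The level of LOC104907441 over that of LOC104895050 was 0.783, 0.593 and 0.465 in the control libraries, 1.58, 1.62 and 1.90 in ST and 3.31, 4.03 and 2.34 in LT leaves. It was below 1 in every control library and above 1 in every treated library, with the LT libraries above all ST libraries. The log2 ratio averaged -0.74 ± 0.38 in control, 0.76 ± 0.14 in ST and 1.65 ± 0.40 in LT leaves (SD, n = 3 each), a 5.25-fold higher ratio in LT than in control leaves. Each of the 3 group comparisons of this ratio gave an exact two-sided permutation p of 0.1, the smallest that 3 against 3 libraries allow. Whether fragments of 1 pheophytinase could have been counted for the other was not tested, since no sequences were compared here.

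Both pheophytinases together had 75.9, 82.2 and 67.7 FPKM in control leaves, 90.6, 91.0 and 115 FPKM in ST leaves and 113, 107 and 88.2 FPKM in LT leaves. The sum was higher in every treated library than in any control library, and ST and LT leaves overlapped. LOC104907441 supplied 37.6 ± 6.10% of this sum in control, 62.9 ± 2.32% in ST and 75.7 ± 5.14% in LT leaves (SD, n = 3 each), so the sum shifted from mostly 1 gene to mostly the other. The sum was formed after the values of both genes had been seen and was not tested.

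Pheophytinase LOC104907441 and STAY-GREEN 1 had a similar mean ratio to each other in all groups. The log2 ratio of LOC104907441 over STAY-GREEN 1 was 1.22 ± 0.39 in control, 1.20 ± 0.22 in ST and 1.18 ± 0.38 in LT leaves (SD, n = 3 each), with exact permutation p of 1, 1 and 0.9 for the 3 group comparisons. LOC104907441 was the higher gene in 9 of 9 libraries (exact sign-flip test, two-sided p = 0.00391, the smallest that 9 libraries allow, and 0.00977 adjusted over 5 pairs). The ratio of LOC104895050 over STAY-GREEN 1 went down, with a mean log2 ratio of 1.96 ± 0.77 in control, 0.44 ± 0.34 in ST and -0.47 ± 0.49 in LT leaves and no overlap between groups (exact permutation p = 0.1 each). Over all 9 libraries the sign-flip test of either gene against LOC104895050 did not pass (adjusted p = 0.160 for both pairs), the sign of each ratio being opposite in 3 libraries. The sign-flip test treats the 9 libraries as 1 set although they form 3 groups. Where a ratio changed between groups, its mean over 9 libraries describes none of them.

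**Figure D2:**
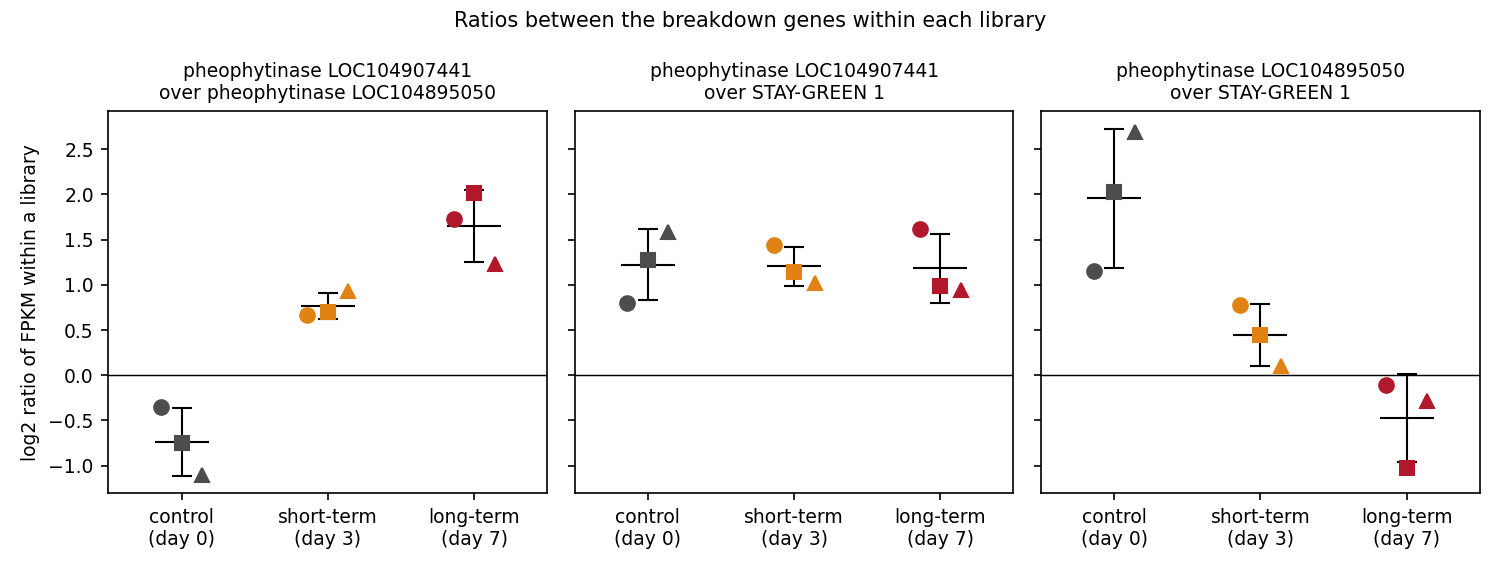
Log2 ratio of FPKM between pairs of the 3 genes within each library, by group, with 1 symbol per replicate number (circle 1, square 2, triangle 3) and the mean and SD of 3 libraries, where 0 means equal levels. The ratio of both pheophytinases climbs from a mean of -0.74 in control to 1.65 in LT leaves, while that of LOC104907441 over STAY-GREEN 1 has group means between 1.18 and 1.22.

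Across the 9 libraries, log2(FPKM + 1) of LOC104907441 and STAY-GREEN 1 had a Pearson r of 0.93, whereas LOC104895050 had -0.81 with LOC104907441 and -0.76 with STAY-GREEN 1. These coefficients, and those that follow, describe 9 libraries that share 3 groups, and they largely repeat the differences between groups.

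Of the 9 other breakdown genes, all 9 passed the filter on low values, and in LT leaves 1 rose, 3 fell and 5 did not pass. The shares over all genes were 31.1% risen and 7.23% fallen. The split of the 9 depended on the scaling of the libraries, since with median-ratio scaling 1 rose and 8 fell. On that scale 1447 of all 14455 genes tested rose and 1848 fell. In ST leaves limma called 0 of the 9 at an adjusted p under 0.05. At an unadjusted p under 0.05, 1 of the 9 rose and 1 fell, against 15.1% and 7.1% of all genes. The median log2 change of the 9 was -0.04 in ST and -0.35 in LT leaves, against 0.11 and 0.26 over all genes tested.

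The gene that rose was that of pheophorbide a oxygenase (LOC104902984), which acts on the product of pheophytinase. It had 23.5, 17.2 and 14.9 FPKM in control leaves, 31.1, 34.1 and 33.4 FPKM in ST leaves and 40.4, 49.1 and 42.9 FPKM in LT leaves. The groups did not overlap, with LT leaves highest. Its log2 change was 1.23 in LT leaves (relative 0.97, SE 0.16, limma adjusted p = 0.00407) and 0.82 in ST leaves (relative 0.71, SE 0.16, adjusted p = 0.0649, and 0.99 with an adjusted p of 0.0219 without C1). Its Pearson r was 0.95 with LOC104907441, 0.94 with STAY-GREEN 1 and -0.91 with LOC104895050. The log2 ratio of LOC104907441 over the oxygenase was 0.62 ± 0.18 in control, 0.91 ± 0.24 in ST and 0.81 ± 0.29 in LT leaves (SD, n = 3 each, exact permutation p = 0.2 for ST and 0.5 for LT against control). This pair and the following one were chosen after the values had been seen.

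Protein STAY-GREEN LIKE (LOC104894688), a relative of STAY-GREEN that in Arabidopsis acts on chlorophyllide, fell in LT leaves, opposite to STAY-GREEN 1. It had 47.9, 56.6 and 61.8 FPKM in control leaves, 42.5, 42.3 and 40.7 FPKM in ST leaves and 41.0, 33.3 and 41.8 FPKM in LT leaves. All treated libraries were below all control libraries. Its log2 change in LT leaves was -0.51 (relative -0.77, SE 0.13, limma adjusted p = 0.0180), a call lost without C2 (adjusted p = 0.0580), without C3 (0.0675), without LT2 (0.0617) and with only the 2 groups fitted (0.0544). In ST leaves it was -0.39 (relative -0.50, adjusted p = 0.133). The log2 ratio of STAY-GREEN 1 over STAY-GREEN LIKE was -2.20 ± 0.89 in control, -0.64 ± 0.47 in ST and -0.18 ± 0.49 in LT leaves (SD, n = 3 each), with exact permutation p of 0.1 for ST and for LT against control. STAY-GREEN 1 was the higher of this pair only in LT2, and their Pearson r was -0.95.

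None of the genes for turning chlorophyll b into chlorophyll a rose in LT leaves. NYC1 (LOC104902204), a chlorophyll b reductase, had 10.8, 9.18 and 12.0 FPKM in control leaves, 11.6, 11.6 and 16.2 FPKM in ST leaves and 3.52, 5.42 and 5.60 FPKM in LT leaves. The ST libraries overlapped the control libraries, and the LT libraries were below all others. NYC1 fell in LT leaves with a log2 change of -1.01 (relative -1.27, SE 0.19, limma adjusted p = 0.00800), and its change in ST leaves was 0.27 (relative 0.16, adjusted p = 0.436). The other reductase, NOL (LOC104884604), was summed over 2 transcripts. Its levels were 14.6, 18.9 and 20.7 FPKM in control leaves, 14.7, 14.9 and 14.6 FPKM in ST leaves and 12.9, 12.3 and 11.7 FPKM in LT leaves. NOL fell in LT leaves, below every other library, with a log2 change of -0.51 (relative -0.77, SE 0.13, limma adjusted p = 0.0178), a call lost without C2 (adjusted p = 0.0596), C3 (0.0634) or LT2 (0.0555) and with only the 2 groups fitted (0.0530). The reductase of the next step, 7-hydroxymethyl chlorophyll a reductase (LOC104884684), had 35.3 to 39.4 FPKM in control, 37.4 to 39.5 in ST and 31.3 to 35.4 in LT leaves, with a log2 change of -0.18 (relative -0.44, SE 0.09, adjusted p = 0.145) in LT leaves. With median-ratio scaling its change was -0.48 and passed (adjusted p = 0.0161).

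The remaining 4 genes of the pathway did not pass the test in LT leaves on the deposited FPKM scale, but all 4 passed as fallen with median-ratio scaling (adjusted p from 0.0263 to 0.0497). Red chlorophyll catabolite reductase (LOC104883759), which reduces the opened ring, had 21.2 to 26.4 FPKM in control and 14.9 to 21.4 in LT leaves (log2 change -0.31, relative -0.57, SE 0.15, limma adjusted p = 0.135). TIC 55 (LOC104905980), whose Arabidopsis counterpart hydroxylates the breakdown products, had 58.9 to 60.1 FPKM in control and 44.6 to 57.8 in LT leaves (-0.23, relative -0.49, SE 0.11, adjusted p = 0.132). Chlorophyllases can also remove the phytol tail, although Arabidopsis leaves do not need them for breakdown in senescence. Chlorophyllase-2 (LOC104907958) had 10.7 to 14.1 FPKM in control and 7.85 to 11.9 in LT leaves (-0.35, relative -0.61, SE 0.16, adjusted p = 0.107). Chlorophyllase type 0 (LOC104886508), summed over 2 transcripts, had 40.4 to 66.7 FPKM in control and 29.6 to 45.7 in LT leaves (-0.41, relative -0.67, SE 0.24, adjusted p = 0.198). The LT libraries of TIC 55 were all below its control libraries, and the other 3 genes overlapped. TIC 55 also passed without LT3 (-0.33, adjusted p = 0.0480), and chlorophyllase-2 without LT1 (-0.51, adjusted p = 0.0276).

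**Figure D3:**
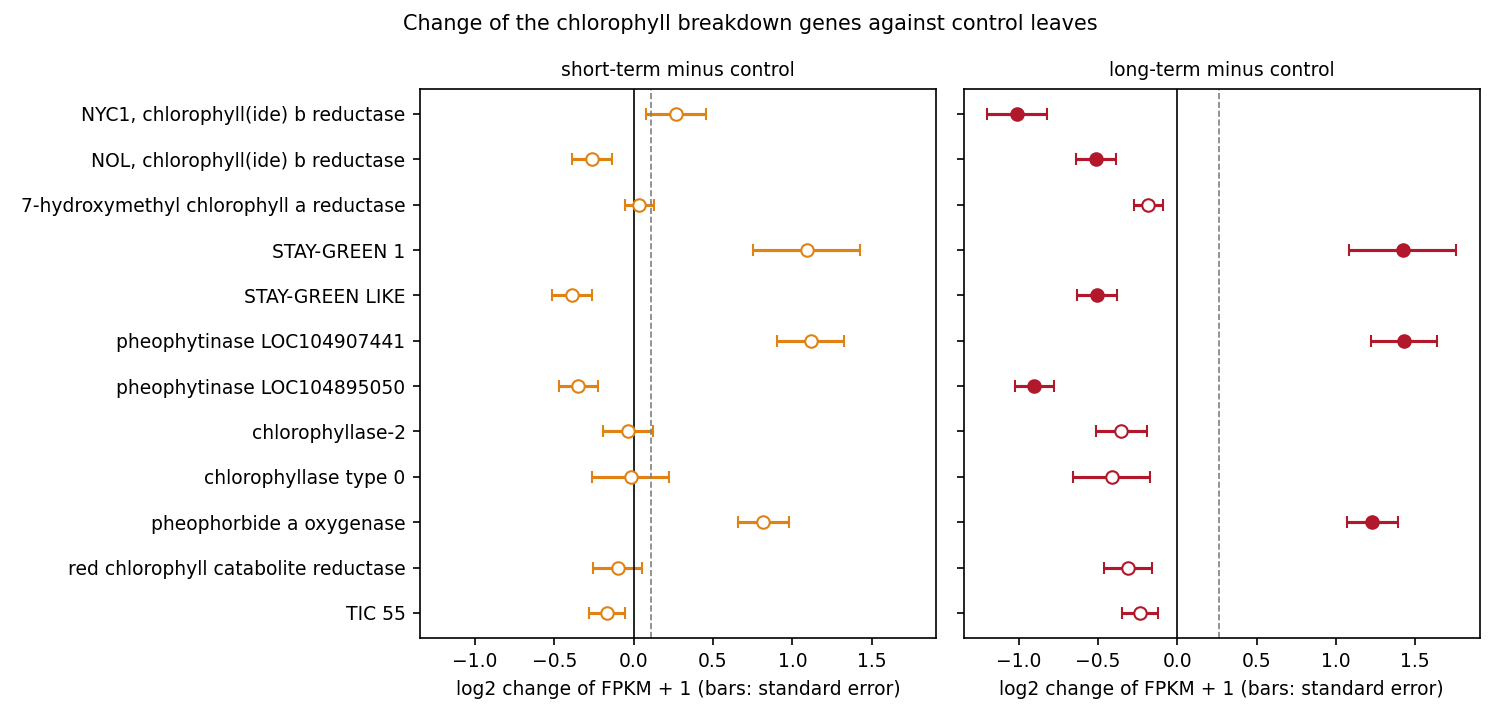
Log2 change of FPKM + 1 against control leaves for the 12 chlorophyll breakdown genes in pathway order from top to bottom, in ST (left) and LT leaves (right), with bars for the standard error of the limma fit, filled points for an adjusted p under 0.05 and a dashed line at the median of all genes tested (0.11 and 0.26). In LT leaves STAY-GREEN 1, LOC104907441 and pheophorbide a oxygenase lie at 1.23 to 1.43, and the other 9 genes lie below 0.

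Genes that make chlorophyll fell in LT leaves for the most part. Of 19 tested synthesis genes, 15 fell, 1 rose and 3 did not pass, with a median log2 change of -1.07 (relative -1.33). Over all genes tested, 7.23% fell and 31.1% rose. Glutamyl-tRNA reductase 1 (LOC104905095), the enzyme at which the flow into this pathway is controlled, went from 144 ± 15.9 FPKM in control to 66.0 ± 5.40 in ST and 30.4 ± 7.56 in LT leaves (SD, n = 3 each, LT log2 change -2.22, relative -2.49, limma adjusted p = 0.00100). The ChlI subunit of magnesium chelatase (LOC104900584), the enzyme that puts in the magnesium that STAY-GREEN takes out, went from 110 ± 24.4 to 62.7 ± 7.02 and 36.3 ± 6.23 FPKM (LT log2 change -1.56, relative -1.82, adjusted p = 0.00318). The gene that rose, a protoporphyrinogen oxidase (LOC104906253), changed by 0.33 (adjusted p = 0.0381), which is 0.07 relative to the median gene, and lost its call under 11 of 18 alternatives. In ST leaves limma called 0 of the 19, and 14 of them fell at an unadjusted p under 0.05, as did 7.1% of all genes.

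The antenna proteins, which hold most of the chlorophyll, fell in 8 of 14 cases in LT leaves, none rose, and their median log2 change was -0.98 (relative -1.24). Among all genes tested, 7.23% fell and 31.1% rose. CP29.3 (LOC104892849) went from 760 ± 142 to 526 ± 96.4 and 320 ± 16.1 FPKM (SD, n = 3 each, LT log2 change -1.23, relative -1.49, limma adjusted p = 0.00451). The summed FPKM of the 14 antenna genes was 29444 to 39095 in control and 14057 to 22620 in LT leaves, whereas the sum of the 2 pheophytinases and STAY-GREEN 1 was 74.8 to 95.0 in control, 111 to 152 in ST and 120 to 151 in LT leaves. The sum of the 9 other breakdown genes was 274 to 301 in control and 246 to 252 FPKM in LT leaves.

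**Figure D4:**
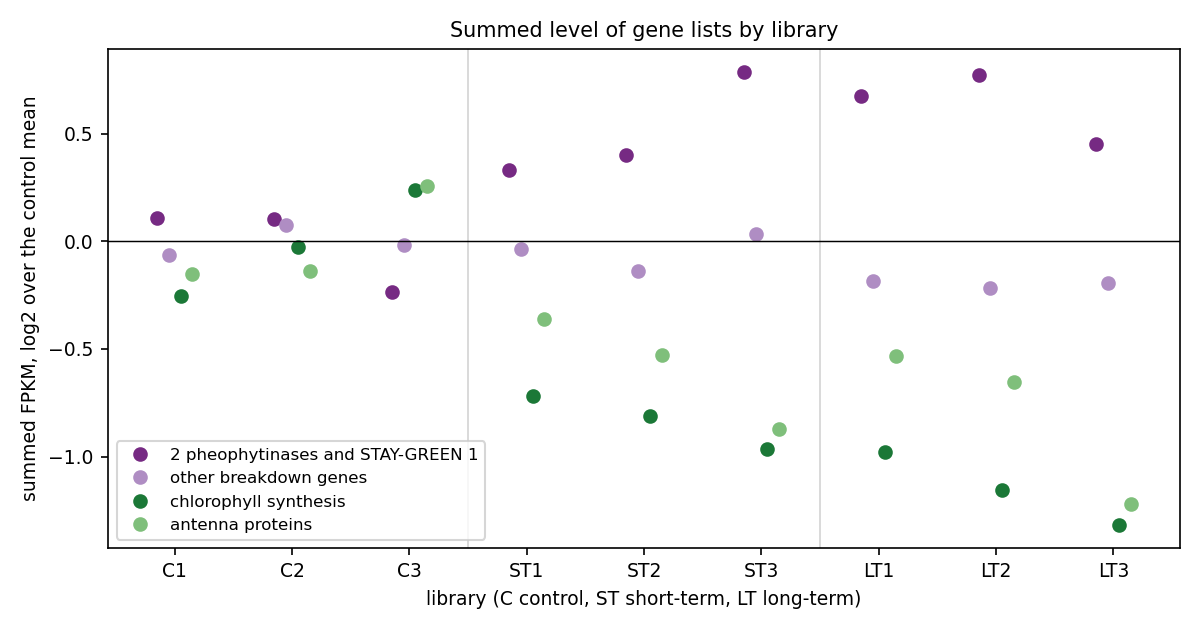
Summed FPKM of 4 gene lists in each library, as log2 over the mean of the control libraries, for the 3 chlorophyll breakdown genes, the 9 other breakdown genes, chlorophyll synthesis and antenna proteins. The 3 genes together lie above the control mean by 0.33 to 0.79 in all treated libraries, and the synthesis and antenna genes lie below it.

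Phytol, the tail that pheophytinase releases, can be stored as an ester or reused for tocopherol. Of 9 tested genes of these routes, 1 rose and 4 fell in LT leaves, with a median log2 change of 0.13 (relative -0.13). The shares of all genes tested were 31.1% risen and 7.23% fallen. The gene that rose encodes an acyltransferase-like protein At1g54570 (LOC104890990), a name that in Arabidopsis belongs to a phytyl ester synthase. It had 1.70, 0.917 and 0.669 FPKM in control leaves, 2.91, 2.09 and 4.90 FPKM in ST leaves and 4.16, 7.84 and 6.33 FPKM in LT leaves (LT log2 change 1.76, relative 1.50, SE 0.29, limma adjusted p = 0.00589), with every treated library above every control library. Another gene of the same product name, LOC104890991, fell from 5.62 ± 1.72 in control to 2.86 ± 0.379 FPKM in LT leaves (SD, n = 3 each, log2 change -0.75, relative -1.01, adjusted p = 0.0251). The last gene of that name, LOC104895212, had 1.75 ± 0.219 and 2.09 ± 0.805 FPKM (0.13, relative -0.13, adjusted p = 0.633), and whether these genes shared fragments was not tested. Both were named after their values had been seen. A gene with the shortened product name 2-methyl-6-phytyl-1 (LOC104894575) went from 209 ± 15.3 in control to 116 ± 21.8 FPKM in LT leaves (SD, n = 3 each, log2 change -0.85, relative -1.11, adjusted p = 0.00570). A probable tocopherol O-methyltransferase (LOC104888087) went from 19.6 ± 3.23 to 11.8 ± 0.945 FPKM (-0.68, relative -0.94, adjusted p = 0.0131).

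Of 6 tested genes whose product names belong to regulator families linked to leaf senescence, 3 rose in LT leaves and none fell. Of all genes, 31.1% rose and 7.23% fell. The list was made by product name only, and a role of these genes in senescence was not tested. The median log2 change of the 6 was 0.55, which is 0.29 relative to the median gene. Transcription factor PIF3 (LOC104890618), a light-signalling factor, went from 4.83 ± 0.900 in control to 7.66 ± 1.28 in ST and 10.1 ± 0.688 FPKM in LT leaves (SD, n = 3 each, LT log2 change 0.94, relative 0.68, limma adjusted p = 0.00521). An ABSCISIC ACID-INSENSITIVE 5-like protein 2 gene (LOC104889671), of a family of abscisic acid response factors, was low at 0.361 ± 0.176 in control and 1.23 ± 0.150 FPKM in LT leaves (0.72, relative 0.46, adjusted p = 0.00930).

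Markers of leaf cell types moved over the same groups. Of 26 mesophyll markers (photosystem, oxygen-evolving and Rubisco genes, all present) 16 fell and none rose in LT leaves, and their summed FPKM was 44984 to 54904 in control, 33949 to 42528 in ST and 26201 to 36366 in LT leaves. Of 5 tested guard cell and epidermis markers 2 rose and 1 fell, against 31.1% and 7.23% of all genes. Among the risen, 3-ketoacyl-CoA synthase 7-like (LOC104890324) lost its call under 13 of 17 alternatives. The fallen marker, 3-ketoacyl-CoA synthase 12 (LOC104897143), went from a mean of 9.76 in control to 4.87 FPKM in LT leaves. Its log2 change was -0.86 (relative -1.12, limma adjusted p = 0.0161), a call lost under 1 of 18 alternatives. The summed FPKM of all 6 listed markers was 33.3 to 44.0 in control, 34.3 to 41.7 in ST and 52.0 to 68.8 in LT leaves. Most of it came from 3-ketoacyl-CoA synthase 11 (LOC104902115), a wax and lipid elongation enzyme. The stomatal factor FAMA stayed below 1 FPKM for both of its genes. The only tested gene of the phloem and vasculature list, sucrose transport protein SUC4 (LOC104908070), was picked by product name. Whether it was specific to vascular tissue in these leaves was not tested. It rose from 3.14 ± 0.693 in control to 5.27 ± 0.440 FPKM in LT leaves (SD, n = 3 each, log2 change 0.61, limma adjusted p = 0.0157), which is 0.35 relative to the median gene. The laccase-3-like gene of that list was at 0 in 6 of 9 libraries. The part of these markers in the changes of the 3 genes was not tested.

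Each of the 3 was compared with 5177 other genes that had a product name and a mean of at least 1 FPKM in 1 group or more. The genes with the most similar pattern were taken by Pearson r of log2(FPKM + 1) over the 9 libraries. For LOC104907441 they were a probable polyamine transporter At1g31830 (LOC104893112, r = 0.99), a probable protein phosphatase 2C 59 (LOC104906000, 0.99), D-3-phosphoglycerate dehydrogenase 1 of serine synthesis (LOC104901403, 0.99) and a glyoxysomal processing protease (LOC104900644, 0.98). The dehydrogenase went from 49.6 ± 19.4 to 163 ± 18.6 and 245 ± 52.1 FPKM in control, ST and LT leaves (SD, n = 3 each). For STAY-GREEN 1 they were 3-hydroxyisobutyryl-CoA hydrolase-like protein 1 of valine breakdown (LOC104905325, 0.98) and 3 genes named only as hypothetical proteins (LOC104902383 and LOC104888414 at 0.98, LOC104902506 at 0.97).

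For LOC104895050 the most similar genes were protein TSS (LOC104901745, r = 0.98), protein RADIALIS-like 2 (LOC104904352, 0.98), the chloroplast positioning protein CHUP1 (LOC104893229, 0.97) and lycopene beta cyclase of carotenoid synthesis (LOC104889451, 0.97). RADIALIS-like 2 was low, with means of 1.20, 0.785 and 0.0887 FPKM in control, ST and LT leaves, and met the minimum of 1 FPKM only in control leaves. Lycopene beta cyclase had 34.4, 41.1 and 44.9 FPKM in control, 31.1, 31.3 and 33.3 in ST and 18.8, 16.1 and 18.6 FPKM in LT leaves. It was lowest in LT leaves without overlap, as was LOC104895050.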

How the data were processed

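Total RNA of sugar beet leaves was depleted of ribosomal RNA and made into strand-specific libraries, 3 per group. Reads were mapped by the authors using HISAT2 and transcripts built using StringTie 1.3.1. The deposited table holds FPKM of 43133 transcripts in 9 libraries, a unit for which the methods name Cuffdiff. No read counts were used. FPKM was summed per gene identifier over all entries typed as protein-coding. The table holds 566 repeated transcript identifiers, and none was removed before summing. Product names were present for 6515 of the 24351 genes, so lists built from names may miss genes. Genes with a group mean over 0.5 FPKM were fitted as log2(FPKM + 1) with limma 3.58.1 in R 4.3.3 over all 9 libraries, with a trend of the variance, and p-values were adjusted over 14491 genes (Benjamini-Hochberg, 0.05). Of 100 genes planted at a log2 change of 1 in simulated data for LT against control leaves, 72 were called, and 93 at 2, with 5 false calls among 14491 genes. The simulation drew noise separately for each gene and held no shift shared by a whole library. Changes were planted only in genes above a low control level. These numbers therefore do not give the power or the false calls in the real libraries. Ratios within libraries were tested by exact permutation and sign-flip tests in Python 3.11.15. In the FPKM steps, 60.3 to 63.8% of low values lay within 0.1 of a whole or midway multiple of the step, so depths are estimates. Labels give replicate numbers only, so p-values measure the spread between these samples. Text names the 3 genes, the other breakdown genes, up to 2 genes per direction of each context list by smallest p in LT leaves, and the 4 most similar genes of each of the 3. These genes and lists were chosen with earlier results of these data known. Alternatives covered pseudocount, filter, scaling, variance trend, samples in the fit, replicate block and leaving out each library.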

Additional observations from a re-analysis of the deposited data

Results flagged for a closer look

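NYC1 (LOC104902204), a chlorophyll b reductase, is listed because its libraries of the treated groups lay on opposite sides of the control mean, a difference that was not established by the test. Its 3 ST libraries (11.6, 11.6 and 16.2 FPKM) were all above the control mean of 10.7 FPKM, and its 3 LT libraries (3.52, 5.42 and 5.60 FPKM) were all below it. ST and control libraries overlapped, and the ST change of 0.27 did not pass (adjusted p = 0.436). The log2 difference between LT and ST leaves was -1.28 (SE 0.19, unadjusted p = 1.04e-04), which did not pass the adjusted threshold in limma (adjusted p = 0.0557). It passed with all libraries at the same total FPKM (adjusted p = 0.0430), without C1 (0.0360), without LT1 (0.0267) and without LT3 (0.0308). Over all its alternatives the adjusted p ranged from 0.0267 to 0.193.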

How the results depend on the processing

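Under 18 alternatives per comparison, neither pheophytinase lost its LT call and none of the 3 genes changed direction. The LT call of STAY-GREEN 1 was lost without LT2 (1.25), and that of its transcript under 4 of 12 alternatives. The ST change of LOC104907441 passed without C1 (1.24) or LT3 (1.11), and the LT minus ST change of LOC104895050 passed without LT1 (-0.60). Leaving out 1 library gave log2 changes against control leaves of 1.25 to 1.59 (LT) and 0.93 to 1.24 (ST) for LOC104907441, -0.96 to -0.80 and -0.41 to -0.28 for LOC104895050, and 1.08 to 1.73 and 0.75 to 1.40 for STAY-GREEN 1, and LT minus ST differences of 0.24 to 0.48, -0.60 to -0.45 and 0.14 to 0.56. Between control and treated libraries, deviations from the group means correlated at -0.61 to -0.13 (same number) and at -0.36 to 0.54 (different number). Between ST and LT libraries these ranges were 0.022 to 0.35 and -0.27 to 0.16. Whether the numbers mark a pairing was not tested, and the labels state none. With the replicate number as a block no gene-level call of the 3 genes changed (LT adjusted p = 0.0229, 0.0229 and 0.0439), the transcript of STAY-GREEN 1 lost its call (0.0631), and 2540 genes rose and 706 fell in LT leaves. These counts were 4505 and 1047 as reported, 1447 and 1848 with median-ratio scaling, 6547 and 772 at the same total FPKM, 2610 and 722 with 2 groups only, and 1759 and 564 without C3, the lowest among the fits that leave out 1 library. In ST leaves the 11 risen and 4 fallen became 344 and 178 without C1 and 0 and 0 without C2, and in LT against ST leaves 0 and 0 became 1750 and 102 at the same total FPKM. Genes that never passed in the comparison concerned reversed: 7-hydroxymethyl chlorophyll a reductase in ST (-0.089 with median-ratio scaling, -0.0029 to 0.074 leaving out 1 library), chlorophyllase-2 in ST (-0.13 to 0.058), chlorophyllase type 0 in ST (-0.16 to 0.19), and in LT minus ST TIC 55 (0.11 at the same total, -0.16 to 0.022 leaving out 1 library) and STAY-GREEN LIKE (0.055 at the same total). LOC104902506 had -0.017 in LT leaves with median-ratio scaling. With median-ratio scaling the 5 other breakdown genes without an LT call all passed as fallen (-0.71 to -0.48). The causes were not tested. For the 3 genes the share of each transcript in its gene has no alternative, since each of the 3 has 1 transcript. The promoter search was not run.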
